A study of Mus musculus with 5 samples.

Results

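The collagen genes of the mouse mammary gland were examined in glands taken on the day of birth from wild-type and Nfib-null animals. Members were the rows of the deposited expression table whose symbol has the form Col, a type number, the letter a and a chain number. A total of 43 of 22609 genes met this rule. Fold changes were computed for the 29 members whose mean over the 5 libraries was at least 1 RPKM (reads per kilobase of gene, adjusted to the depth of the library), among 12511 genes of the whole table that passed the same minimum. The other 14 members lay under it.

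RNA was sequenced from whole mammary glands without lymph nodes of outbred mice, less than 12 hours after delivery, in 2 wild-type and 3 Nfib-null libraries. The Nfib-null group is labelled as a knockout (KO) of the gene for the transcription factor NFIB. The labels give no promoter, driver or cell type for the deletion, and do not say whether each library came from a single animal. The table holds 1 value per gene for each group, so no difference below has a replicate check or a test, and each is described by its size alone. The column headed NfibFF-WC was taken for the Nfib-null group by exclusion, as the other column, headed Nfib-WT, carries the wild-type name. Nfib itself was not lower in it. It stood at 55.3 RPKM in the NfibFF-WC column and at 33.7 RPKM in the Nfib-WT column, a ratio of 1.64 as deposited and a log2 difference of 0.30 after the scaling described below. A lower level of Nfib RNA was thus not seen in the column taken for the null group, and the assignment has no backing from Nfib itself. The labels do not say which part of the gene was removed. An RPKM of the whole gene in whole glands does not show the level in the cells with the deletion. Every direction below is therefore given between the columns by their headings and rests on that assignment.

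Collagens are secreted or membrane proteins in which 3 chains wind into a triple helix. Fibrillar collagens form the tension-bearing fibrils of connective tissue. Network collagens of type IV form the sheet of the basement membrane, on which the ducts, alveoli, fat cells and vessels of the gland rest. FACITs (fibril-associated collagens with interrupted triple helices) sit on the surface of fibrils. In the mammary gland the fibroblasts of the stroma are the main source of fibrillar collagen, and the basement membrane is needed for milk protein expression by the epithelium.

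Every one of the 43 members had a higher RPKM in the NfibFF-WC column than in the Nfib-WT column, as deposited, by 1.09-fold to 6.39-fold. That direction was common in the table. Of the 17044 genes above 0 in both columns 12400 were also higher as deposited, as were 9361 of the 12511 genes kept. Each column was therefore divided by its median-ratio factor, which sets the median difference of all genes to 0. Differences are given below as the log2 of scaled RPKM + 1 in the NfibFF-WC column minus that in the Nfib-WT column. The added 1 makes changes of low genes look smaller, and 2-fold means a difference of 1 on this scale. By this measure all 29 members kept lay above 0, against 50.0% of all genes kept. Of the 29, 13 were at least 2-fold higher, against 6.95% of all genes, and 0 were at least 2-fold lower, against 5.97% of all genes. The median of the 29 was 0.93, beside 0 for all genes. The RNA came from whole glands with several cell types, in which more cells of a type and more RNA per cell cannot be told apart. Col8a1, Col11a1, Col13a1 and Col20a1 passed the minimum through the NfibFF-WC column alone, with less than 1 RPKM in the Nfib-WT column, so their place among the members kept is not independent of their difference.

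**Figure D1:**
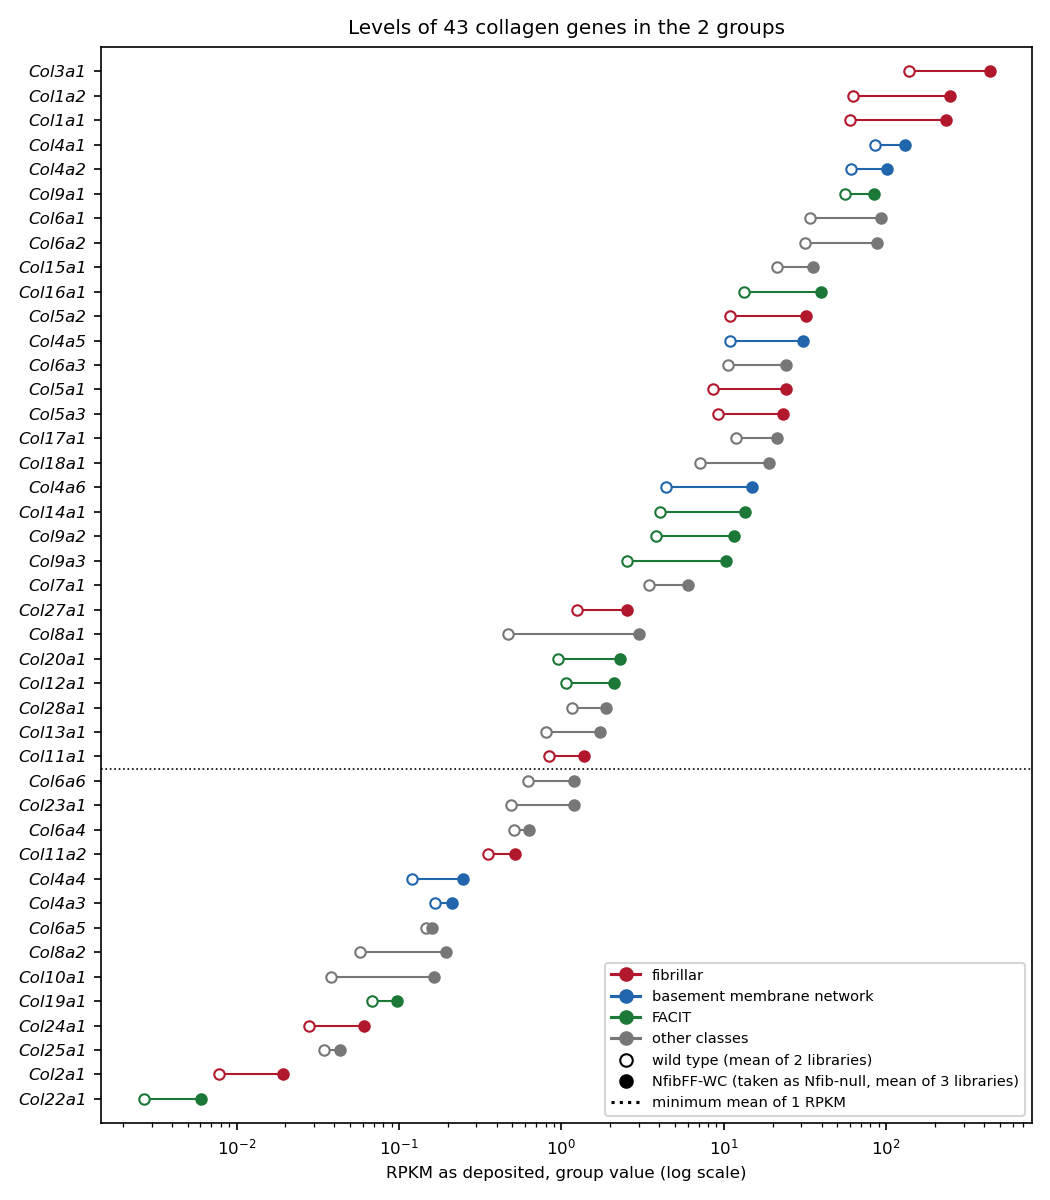
Level of each of the 43 collagen genes in RPKM as deposited (log scale), with open points for the Nfib-WT column, filled points for the NfibFF-WC column and colours for the class. The filled point lies to the right of the open point in all 43 rows, and the 14 genes under the dotted line have a mean under 1 RPKM.

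The collagen genes together summed to 1734 RPKM in the NfibFF-WC column and to 660 RPKM in the Nfib-WT column. This was 0.316% of all RPKM in the NfibFF-WC column and 0.0696% in the Nfib-WT column, a ratio of 4.54. Milk protein genes filled much of the wild-type total, with a list of 23 of them at 65.9% of all RPKM there and 30.9% in the NfibFF-WC column. Without that list the collagen share was 0.458% against 0.204%, a ratio of 2.24. Leaving out the 20 genes of highest mean gave nearly the same ratio, 2.23.

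The make-up of the collagen sum differed between the columns. Fibrillar genes made up 57.4% of it in the NfibFF-WC column and 44.3% in the Nfib-WT column. The 6 type IV genes made up 16.0% and 24.5%, the FACIT genes 9.42% and 12.3%, and all other classes 17.2% and 18.9%. Col1a1, Col1a2 and Col3a1 alone held 52.5% of the collagen sum in the NfibFF-WC column and 39.5% in the Nfib-WT column, while Col4a1 and Col4a2 held 13.4% and 22.1%. These shares are ratios within a column and do not depend on a scaling factor between the columns.

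**Figure D2:**
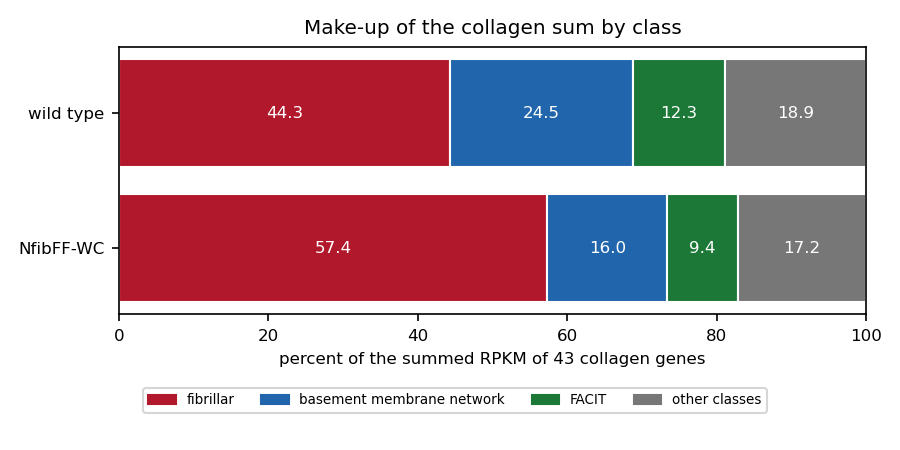
Share of each class in the summed RPKM of the 43 collagen genes, in percent, with 1 bar for each group. The fibrillar part is 44.3% of the bar in the Nfib-WT column and 57.4% in the NfibFF-WC column, and the basement membrane network part is 24.5% and 16.0%.

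Type I and type III collagen, the main fibrils of the stroma, were the most abundant members in the NfibFF-WC column and had the largest differences among the fibrillar genes. Col3a1, which encodes the type III chain, stood at 434 RPKM in the NfibFF-WC column and 139 RPKM in the Nfib-WT column, a log2 difference of 1.23. Col1a2 and Col1a1, which encode the chains of type I collagen, both differed by more than this. Col1a2 stood at 245 against 62.3 RPKM (log2 1.55). Col1a1 stood at 232 against 59.5 RPKM (log2 1.54). In order of RPKM over the table, Col1a2 stood at place 213 in the NfibFF-WC column and at place 839 in the Nfib-WT column.

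The type I chains stood in nearly the same proportion in both columns. The ratio of Col1a1 to Col1a2 in RPKM was 0.945 in the NfibFF-WC column and 0.955 in the Nfib-WT column. The ratio of Col3a1 to Col1a1 was 1.87 in the NfibFF-WC column and 2.34 in the Nfib-WT column, so that type III made up less of the pair in the former.

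Type V collagen, a minor fibrillar collagen that joins type I in mixed fibrils and limits their width, differed less than type I. Col5a2 stood at 31.9 RPKM in the NfibFF-WC column and 11.0 RPKM in the Nfib-WT column (log2 1.07). Col5a1 stood at 24.0 against 8.61 RPKM (log2 0.9989), just under 2-fold, and Col5a3 at 23.3 against 9.19 RPKM (log2 0.87). The ratio of Col5a2 to Col1a2 was 0.130 in the NfibFF-WC column and 0.176 in the Nfib-WT column. Fibrillar genes of cartilage and of restricted sites were low in both columns. Col27a1 stood at 2.53 against 1.26 RPKM (log2 0.38) and Col11a1, a chain of the minor fibrillar collagen of cartilage, at 1.37 against 0.837 RPKM (log2 0.16). Of the 8 fibrillar genes kept of 11, 4 were at least 2-fold higher, beside 6.95% of all genes, and the median of the 8 was 1.04. Col11a2 stood at 0.515 against 0.355 RPKM, under the minimum.

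The type IV genes of the basement membrane separated into pairs. Col4a1 and Col4a2 encode the chains of the type IV collagen found in nearly all basement membranes. Col4a1 stood at 131 RPKM in the NfibFF-WC column and 84.7 RPKM in the Nfib-WT column (log2 0.22), and Col4a2 at 101 against 61.1 RPKM (log2 0.31). Both lay within 2-fold. Col4a5 and Col4a6 encode chains of a second type IV collagen with a narrower distribution, which includes basement membranes around smooth muscle and of some epithelia. Col4a5 stood at 30.6 against 11.0 RPKM (log2 1.01) and Col4a6 at 14.9 against 4.43 RPKM (log2 1.19), and both were at least 2-fold higher in the NfibFF-WC column. The ratio of Col4a1 to Col4a5 in RPKM was 4.29 in the NfibFF-WC column and 7.73 in the Nfib-WT column. The remaining pair, Col4a3 and Col4a4, known from the kidney glomerulus, lay under 0.25 RPKM in both columns. Of the 4 type IV genes kept of 6, 2 were at least 2-fold higher, beside 6.95% of all genes, and the median of the 4 was 0.66.

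In mammals the type IV genes lie head to head in pairs and are read away from each other. In the RefSeq promoter windows of GRCm38.p6, which reach from 250 bases before to 50 bases after a start site, those of Col4a1 and Col4a2 shared 78 bases. Their start sites lay 21 bases apart, in such an order that the first bases of both genes overlap. The start sites of Col4a6 and Col4a5 lay 1343 bases apart. The ratio of Col4a1 to Col4a2 in RPKM was 1.30 in the NfibFF-WC column and 1.39 in the Nfib-WT column. For Col4a5 to Col4a6 it was 2.06 and 2.48. For the low pair Col4a3 and Col4a4 it moved more, from 1.39 in the Nfib-WT column to 0.849 in the NfibFF-WC column, with about 54 and 41 reads behind the wild-type values. The authors' notes name mm9, another build, so these positions serve only to place the sequences.

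Promoter sequences are shown for 5 of the 9 members with a window that were at least 2-fold higher in the NfibFF-WC column. The 5 were picked by hand, Col4a5 and Col4a6 because they lie head to head, and do not stand for all 9. The sequences come from RefSeq on GRCm38.p6 and are given from 5′ to 3′ on the strand of the gene, cut where an annotated RefSeq gene begins. Capitals mark TTGGC on either strand (written GCCAA when it lies on the other), which is either arm of the palindrome to which NFI proteins bind.

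Col1a2 (chr6:4505368-4505617, plus strand): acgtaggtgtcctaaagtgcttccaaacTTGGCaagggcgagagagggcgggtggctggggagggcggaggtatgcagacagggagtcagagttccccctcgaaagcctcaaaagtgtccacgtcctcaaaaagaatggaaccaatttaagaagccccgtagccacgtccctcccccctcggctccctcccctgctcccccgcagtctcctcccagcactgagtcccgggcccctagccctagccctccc

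Col3a1 (chr1:45311288-45311537, plus strand): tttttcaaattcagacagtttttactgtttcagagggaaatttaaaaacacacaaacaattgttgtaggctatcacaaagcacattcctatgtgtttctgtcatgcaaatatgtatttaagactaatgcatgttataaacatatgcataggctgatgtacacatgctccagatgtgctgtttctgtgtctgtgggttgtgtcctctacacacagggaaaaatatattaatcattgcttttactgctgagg

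Col4a5 (chrX:141475169-141475369, plus strand): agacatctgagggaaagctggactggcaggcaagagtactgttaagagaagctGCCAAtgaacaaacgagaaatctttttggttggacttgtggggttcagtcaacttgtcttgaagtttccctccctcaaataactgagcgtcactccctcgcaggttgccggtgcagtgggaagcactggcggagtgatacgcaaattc

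Col4a6 (chrX:141474096-141474326, minus strand): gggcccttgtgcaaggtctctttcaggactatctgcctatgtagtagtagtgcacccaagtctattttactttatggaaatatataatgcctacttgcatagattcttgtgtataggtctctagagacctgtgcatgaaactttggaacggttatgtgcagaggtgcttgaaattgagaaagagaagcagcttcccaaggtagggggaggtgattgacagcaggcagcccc

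Col8a1 (chr16:57754738-57754987, minus strand): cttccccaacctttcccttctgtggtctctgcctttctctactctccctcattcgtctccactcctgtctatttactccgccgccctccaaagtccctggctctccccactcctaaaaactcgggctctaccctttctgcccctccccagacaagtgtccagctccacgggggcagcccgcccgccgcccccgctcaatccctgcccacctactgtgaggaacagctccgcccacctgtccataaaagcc

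This arm appeared in the stretches printed for Col1a2 and Col4a5 and in none of the other 3. In Col8a1 it lay across the start site and thus past the end of the printed stretch. A window was given for 35 of the 43 members (38 windows), and Col1a1 was not among them. TTGGC on either strand occurred in 42.1% of these 38 windows and in 46.7% of all 32851 promoter windows of the same length. It occurred in 40.0% of the 10 windows of members at least 2-fold higher and in 41.2% of the 17 windows of the other members kept. The whole palindrome, TTGGC with GCCAA after 5 further bases, occurred in 0 of the 38 windows and in 0.0365% of all windows. TTCNNNGAA, the element to which STAT5 binds and which reads the same on both strands, occurred in 2 of the 38 windows (5.26%), those of Col28a1 and Col6a5, and in 8.30% of all windows. A match is a description of the letters in a window and not a binding site.

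The FACIT genes did not differ by one amount. Col14a1 and Col16a1 encode fibril-associated chains of connective tissue. Col16a1 stood at 39.8 RPKM in the NfibFF-WC column and 13.3 RPKM in the Nfib-WT column (log2 1.12), and Col14a1 at 13.6 against 4.06 RPKM (log2 1.17). Col12a1, which encodes a related FACIT of dense connective tissue, stood lower, at 2.12 against 1.06 RPKM (log2 0.35), and Col20a1 at 2.31 against 0.958 RPKM (log2 0.51). Relative to Col1a1, Col12a1 stood at 0.00916 in the NfibFF-WC column and 0.0179 in the Nfib-WT column, whereas Col14a1 stood at 0.0587 and 0.0682. Of 7 FACIT genes kept of 9, 4 were at least 2-fold higher, beside 6.95% of all genes, and the median of the 7 was 1.04.

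The 3 genes of type IX collagen, whose chains join in 1 molecule best known from cartilage, were far apart in level and in difference. Col9a1 stood at 83.5 RPKM in the NfibFF-WC column and 55.6 RPKM in the Nfib-WT column, a log2 difference of 0.17, and was the member of highest level among the FACITs. Its partner Col9a2 stood at 11.6 against 3.81 RPKM (log2 1.04), and Col9a3 at 10.4 against 2.53 RPKM (log2 1.35). The ratio of Col9a1 to Col9a2 was thus 7.19 in the NfibFF-WC column and 14.6 in the Nfib-WT column, and that of Col9a1 to Col9a3 was 8.06 and 22.0. Col9a1 has 2 windows in the RefSeq promoter table, for a long and a short form, and an RPKM of the whole gene does not tell them apart. Other collagen genes of cartilage were low. Col2a1, the main cartilage fibril, stood at 0.0194 against 0.00781 RPKM, and Col10a1 of growth plate cartilage at 0.163 against 0.0383 RPKM, both named after their values had been seen. Col11a1 stood above these, at 1.37 against 0.837 RPKM.

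Type VI collagen forms beaded filaments that link cells to the surrounding matrix and is abundant in fat. Col6a1 stood at 93.5 RPKM in the NfibFF-WC column and 34.1 RPKM in the Nfib-WT column (log2 1.02), and Col6a2 at 88.3 against 31.7 RPKM (log2 1.05). Both were just above 2-fold, and their ratio was 1.06 in the NfibFF-WC column and 1.08 in the Nfib-WT column. Col6a3, the third and longest of these chains, stood at 24.2 against 10.7 RPKM (log2 0.72), so that the ratio of Col6a1 to Col6a3 was 3.87 and 3.20. The alternative chains Col6a6 (1.20 against 0.625 RPKM) and Col6a4 (0.635 against 0.511 RPKM) lay under the minimum, with Col6a6 closest to it at a mean of 0.969 RPKM.

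Several members of the zone between cells and their basement membrane lay well within 2-fold. Col17a1, a transmembrane collagen of hemidesmosomes, stood at 21.2 RPKM in the NfibFF-WC column and 11.9 RPKM in the Nfib-WT column (log2 0.40). Col7a1, which forms the anchoring fibrils under stratified epithelium, stood at 6.03 against 3.48 RPKM (log2 0.31). The multiplexins, basement membrane proteoglycans with a cleavable carboxy-terminal end, did not stand together. Col15a1 stood at 35.3 against 21.3 RPKM (log2 0.31), and Col18a1, the source of endostatin, at 19.1 against 7.11 RPKM (log2 0.93).

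Among the remaining members, Col8a1 had the largest ratio as deposited. It encodes a short-chain network collagen known from vessel walls and the eye, and stood at 3.002 RPKM in the NfibFF-WC column and 0.470 RPKM in the Nfib-WT column, a ratio of 6.39. Its log2 difference of 1.22 was smaller than that of Col1a1 because the added constant of 1 weighs on low values. About 120 reads lay behind its wild-type value and about 2131 behind its NfibFF-WC value, the former being the lowest number among the members kept. The membrane collagen gene Col13a1 stood at 1.72 against 0.808 RPKM (log2 0.37) and Col28a1, known from peripheral nerve, at 1.89 against 1.16 RPKM (log2 0.17). Col23a1 stood at 1.20 against 0.490 RPKM, with a mean of 0.916 RPKM just under the minimum, while Col11a1 was just above it at 1.16 RPKM. The 10 members not above 0.5 RPKM in either column lay between 0.00606 and 0.248 RPKM in the NfibFF-WC column and between 0.00268 and 0.166 RPKM in the Nfib-WT column. Outside the fibrillar, type IV and FACIT classes, 3 of the 10 genes kept of 17 were at least 2-fold higher, beside 6.95% of all genes, with a median of 0.56.

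**Figure D3:**
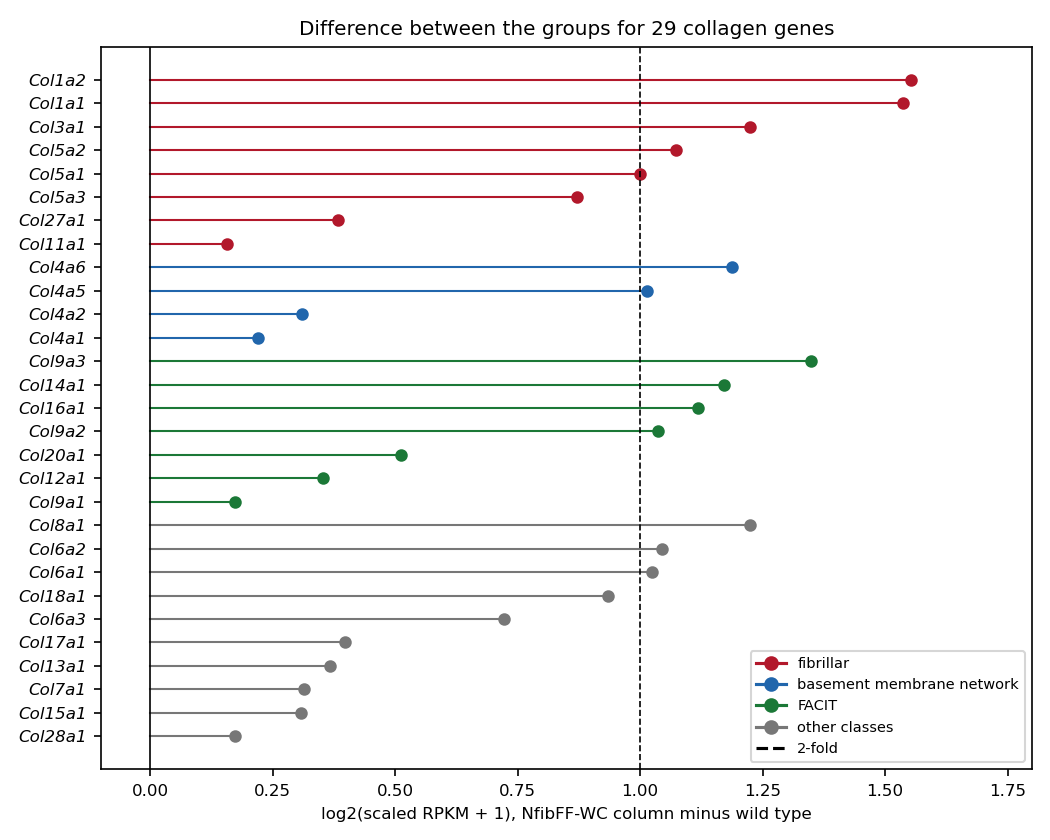
Difference between the columns on the log2(scaled RPKM + 1) scale for the 29 collagen genes kept, ordered within each class, with the dashed line at 2-fold. Col1a2 and Col1a1 lie farthest to the right at 1.55 and 1.54, and Col11a1, Col28a1 and Col9a1 nearest to 0 at 0.16, 0.17 and 0.17.

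Collagen chains are modified and folded in the endoplasmic reticulum, trimmed outside the cell and then crosslinked, and the genes for these steps were not all higher. Of 26 genes kept in 4 lists of collagen processing, 6 were at least 2-fold higher and 1 was at least 2-fold lower, with a median of 0.76. Of all genes, 6.95% were higher and 5.97% lower by this limit. All 6 that were higher belong to the lists for propeptide removal and crosslinking. Among the genes for propeptide removal, which allows fibrils to assemble, 4 of 5 were at least 2-fold higher (median 1.23). Adamts2, the protease that removes the amino-terminal propeptide of fibrillar collagens, stood at 18.1 against 4.52 RPKM (log2 1.43), and Pcolce, an enhancer of carboxy-terminal propeptide removal, at 47.4 against 13.7 RPKM (log2 1.33). Of 4 genes of lysyl oxidases, the enzymes that crosslink fibrils, 2 were at least 2-fold higher (median 1.01). They were Loxl1 (28.8 against 7.43 RPKM, log2 1.44) and Lox (16.0 against 5.47 RPKM, log2 1.03).

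Of 6 genes in the list for folding, glycosylation and export 0 reached 2-fold (median 0.73). This depended on the scaling, since 2 of the 6 did with quantile normalization and 3 with equal sums or as deposited, while the crosslinking count went from 2 to 1, 3 and 4. Of all genes, 6.56%, 9.41% and 14.4% were at least 2-fold higher in those settings, in this order. The members of highest level were Sparc, the gene of a secreted collagen-binding protein, at 817 against 334 RPKM (log2 0.88) and Serpinh1, the collagen chaperone HSP47, at 165 against 63.4 RPKM (log2 0.96). Of 11 genes for prolyl and lysyl hydroxylation 0 were at least 2-fold higher and 1 was lower (median 0.34), beside 6.95% and 5.97% of all genes. The lower one was P4hb, protein disulfide isomerase, at 308 against 583 RPKM (log2 −1.33). It is the shared subunit of prolyl 4-hydroxylase and also folds secreted proteins in general. Its wild-type value was exactly that of another gene, Rps14, a tie that makes it approximate. Of 10 receptor and uptake genes 2 were at least 2-fold higher (median 0.43). They were Ctsk, the collagen-degrading protease cathepsin K (36.9 against 10.5 RPKM, log2 1.33), and Ddr2, a receptor kinase for fibrillar collagen (15.2 against 5.07 RPKM, log2 1.05).

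Markers of stromal cells were also higher in the NfibFF-WC column. Beside the counts given here, 6.95% of all genes were at least 2-fold higher and 5.97% at least 2-fold lower. Of 19 fibroblast markers other than collagens 13 were at least 2-fold higher and 0 lower (median 1.24), and the list summed to 2849 RPKM in the NfibFF-WC column and 790 RPKM in the Nfib-WT column. Pi16 (log2 2.22) and fibronectin, Fn1 (log2 1.96), had the largest differences. Tcf21, the member of the list under the minimum, was near 0 in both columns (0.0399 RPKM in the NfibFF-WC column and 0 in the Nfib-WT column). Of 12 white adipocyte markers 11 were higher and 0 lower (median 1.89, sums of 10495 and 2169 RPKM), with Cidec (2.43) and Rbp4 (2.42) at the top. Of 11 macrophage markers 8 were higher and 0 lower (median 1.27, sums of 770 and 230 RPKM), led by Cd68 (1.65) and C1qc (1.43). The part of these cell types in the collagen differences was not tested.

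None of 14 endothelial and mural markers reached 2-fold (median 0.03, sums of 349 and 255 RPKM), and the 2 of highest level, Cdh5 and Pecam1, differed by −0.18 and −0.04. Of 15 basal and myoepithelial markers 1, Sparcl1 (1.68), was higher and 0 lower (median 0.16, sums of 1651 and 1014 RPKM). By the same limit 6.95% of all genes were higher and 5.97% lower. Of 18 luminal markers 6 were higher and 2 lower (median 0.71, sums of 2645 and 2064 RPKM), with Kit (2.89) and Aldh1a3 (2.78) highest and Elf5 (−1.56) and Cldn8 (−1.40) lowest. The part of these cell types was not tested either. Of 4 skeletal muscle markers kept Acta1 was higher (2.32) and Ckm (−1.77) and Tnni2 (−1.21) lower, with a median of −1.07 and sums of 34.5 and 14.5 RPKM. Of the 23 milk protein genes 15 were lower and 0 higher (median −1.92), with Csn1s2b (−4.40) and Glycam1 (−4.09) lowest. Glycam1 had exactly the wild-type value of another gene of the list, Wap (102755 RPKM), so its difference is approximate too.

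**Figure D4:**
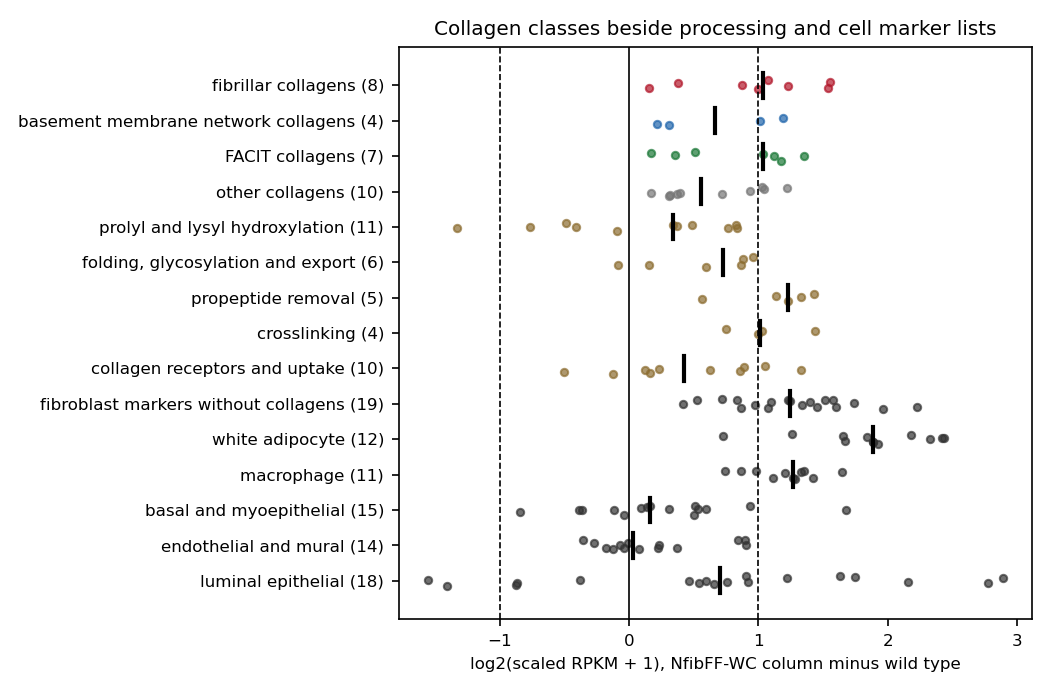
Difference between the columns on the log2(scaled RPKM + 1) scale, with 1 point per gene, a black bar at the median and the number of genes kept in brackets, for the collagen classes, the processing lists and the marker lists. The medians of the fibrillar and FACIT genes lie at 1.04, that of the type IV genes at 0.66 and that of the other collagen genes at 0.56. Those of the marker lists shown run from 0.03 (endothelial) through 0.16 (basal), 0.71 (luminal), 1.24 (fibroblast) and 1.27 (macrophage) to 1.89 (adipocyte). The skeletal muscle and milk protein lists are not drawn.

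How much higher the collagen genes stood depended on what the columns were scaled to. With values as deposited 17 of the 29 were at least 2-fold higher, against 14.4% of all genes, and 0 were lower, against 2.95%. Scaled so that the luminal epithelial list had a median of 0, 0 of the 29 were at least 2-fold higher, against 1.33% of all genes, and 0 were lower, against 29.2%. In that scaling 17 of the 29 lay above 0, among them Col1a2 (0.85), Col1a1 (0.83) and Col3a1 (0.52), and 12 lay below 0, among them Col4a1 (−0.49) and Col9a1 (−0.53). Scaled to the fibroblast markers, 0 of the 29 were at least 2-fold higher, against 0.416% of all genes, and 4 were lower, against 67% of all genes. These 4 were Col11a1 (−1.09), Col9a1 (−1.07), Col28a1 (−1.07) and Col4a1 (−1.02). Only Col1a2 (0.31), Col1a1 (0.29) and Col9a3 (0.11) lay above 0 there, and Col3a1 stood at −0.02. Both scalings are applied after 1 is added, so low genes are still held down in them. Col8a1 thus lay at −0.02 with fibroblast scaling, although its ratio as deposited was 6.39, and its sign there does not compare its ratio with those of the markers. The order of the members was the same in both of these scalings as in the median-ratio scaling, since they add a constant to every gene.

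**Figure D5:**
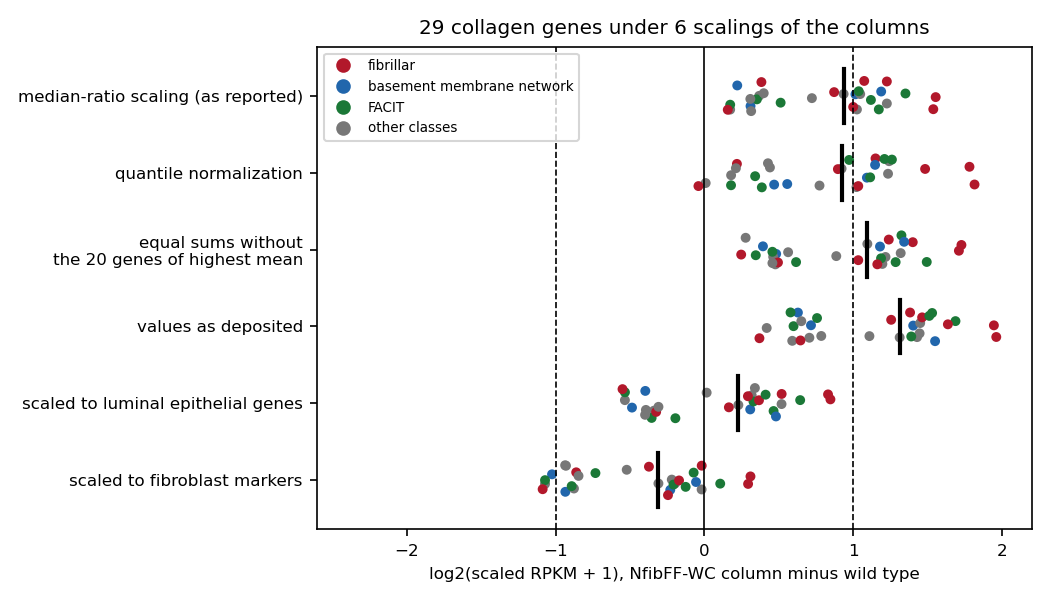
Difference between the columns for the 29 collagen genes under 6 scalings of the columns, with 1 point per gene coloured by class and a black bar at the median. The median lies at 0.93 with median-ratio scaling, at 0.23 with scaling to luminal genes and at −0.31 with scaling to fibroblast markers.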

How the data were processed

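Per the file headers, the values the authors deposited are RPKM, with 1 column for each group. Reads went through CASAVA and TopHat with the build mm9, per the submitters' processing notes, which give no versions. Which program counted them, on which annotation and with or without strand, is not given in the sources used here, so reads of overlapping genes cannot be separated. Of 489 wild-type genes at 100 RPKM or more 8 shared an exact value with another gene, none a collagen. Such ties could come from a rank-based normalization, which was not tested. Wild-type values, and the ratios and shares within that column, are therefore best read as approximate.

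Depth was estimated from genes with a single GENCODE transcript, as the depth at which a value would stand for 1 read in 1 library. Only depths within a set range were kept and the most frequent ones taken, so the estimates could not fall outside that range. This gave about 14900000 and 17600000 reads in the wild-type column and 27200000 and 33200000 in the NfibFF-WC column. The remaining library of the NfibFF-WC column was taken as like these. Read numbers use GENCODE exon lengths of another build and cover counting error only, and they hold only if no such normalization changed low values.

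The minimum for a gene was 1 RPKM, as a mean weighted by 3 and 2 libraries. Columns were divided by median-ratio factors of 1.153 and 0.867, and 1 was added before taking log2. Counts use a 2-fold limit. Calculations were made with Python 3.11.15, pandas 2.3.3 and numpy 2.4.6 and checked on simulated columns. All collagen genes above the minimum are named, as are members under it with at least 0.5 RPKM in either column. Of each other list the 2 of largest difference in each direction past 2-fold are named, or the 2 of highest mean. The members, the classes and the 13 gene lists were chosen with earlier results of these data known, and 1 further marker list is not reported here. Triple-helix repeats, which had been planned, were not analysed here. Alternatives were other scalings, pseudocounts, minimums, fold limits and denominators.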

Additional observations from a re-analysis of the deposited data

How the results depend on the processing

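No paired analysis was possible because the table holds 1 column per group, and for the same reason no replicate could be left out. All 29 collagen genes lay above 0 with median-ratio scaling, equal sums, values as deposited, both other pseudocounts and both other minimums (22 genes at 5 RPKM), and 28 did with quantile normalization, the exception being Col11a1 (−0.04). The median of all genes stood at 0.15 with equal sums, 0.35 as deposited, −0.71 with luminal scaling and −1.24 with fibroblast scaling. The cause of each change below was not tested, except that a scaling to a list shifts every gene by the same amount and a larger pseudocount shrinks the differences of low genes.

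The count of collagen genes at least 2-fold higher was 13 as reported, 0 with luminal or fibroblast scaling or a 4-fold limit, and 3 with a pseudocount of 5. Of all genes 6.95% were higher as reported, 1.33% and 0.416% with those scalings, 0.727% at the 4-fold limit and 2.77% with that pseudocount. The count lower was 4 with fibroblast scaling, against 67% of all genes. The median of the collagen genes was 1.09 with equal sums, 1.31 as deposited, 0.23 with luminal scaling, −0.31 with fibroblast scaling, 0.68 with a pseudocount of 5, 0.35 with no minimum and 1.08 with a minimum of 5 RPKM. In the same order of settings the fibrillar median of 1.04 became 1.20, 1.42, 0.33, −0.21, 0.84, 0.85 and 1.21, the FACIT median of 1.04 became 1.19, 1.39, 0.33, −0.21, 0.68, 0.50 and 1.18 (1.16 with a pseudocount of 0.1), and the median of the other classes of 0.56 became 0.72, 0.95, −0.15, −0.68, 0.39, 0.29 and 0.78 (0.69 with a pseudocount of 0.1). The type IV median of 0.66 became 0.82 with quantile normalization, 0.83 with equal sums, 1.06 as deposited, −0.045 with luminal scaling, −0.58 with fibroblast scaling, 0.56 with a pseudocount of 5 and 0.24 with no minimum.

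Of the collagen processing genes 6 were higher as reported, 11 with equal sums, 14 as deposited, 0 with luminal or fibroblast scaling or a 4-fold limit, 3 with a pseudocount of 5 and 15 with a 1.5-fold limit, where all genes gave 9.41% with equal sums, 14.4% as deposited and 17.1% at the 1.5-fold limit. The number lower, 1 as reported, was 0 as deposited or with a 4-fold limit, 4 with luminal scaling, 7 with fibroblast scaling and 2 with a 1.5-fold limit, beside 5.97%, 2.95%, 1.23%, 29.2%, 67% and 14.7% of all genes in this order. Their median of 0.76 became 0.90 with equal sums, 1.10 as deposited, 0.051 with luminal scaling, −0.49 with fibroblast scaling, 0.88 with a pseudocount of 0.1, 0.51 with a pseudocount of 5, 0.57 with no minimum and 0.89 with a minimum of 5 RPKM. The ratio of the collagen shares, 4.54, was 2.24 without milk proteins and 2.23 without the 20 genes of highest mean.

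With fibroblast scaling 26 of the 29 collagen genes lay below 0, and with luminal scaling 12 did. The added 1 holds down low genes such as Col8a1 in both. Of the 26, those past 2-fold as reported or in this scaling were Col3a1 (−0.019), Col8a1 (−0.019), Col4a6 (−0.057), Col14a1 (−0.073), Col16a1 (−0.13), Col5a2 (−0.17), Col6a2 (−0.20), Col9a2 (−0.21), Col6a1 (−0.22), Col4a5 (−0.23), Col4a1 (−1.02), Col28a1 (−1.07), Col9a1 (−1.07) and Col11a1 (−1.09), and the other 12 stayed within 2-fold in both. The medians of all 4 collagen classes and of 8 of the 13 gene lists turned below 0 with fibroblast scaling, among these lists propeptide removal (−0.013), crosslinking (−0.23), folding (−0.51), hydroxylation (−0.91), receptors (−0.82), luminal (−0.54), basal (−1.08) and endothelial (−1.21). With luminal scaling the medians of 2 classes (type IV and other) and of 4 lists (hydroxylation −0.37, receptors −0.28, basal −0.54 and endothelial −0.67) turned below 0. The skeletal muscle list held 1 gene at a minimum of 5 RPKM and then stood at 2.38. Depth limits Col8a1, Col13a1, Col20a1 and Col28a1 most, with about 120, 121, 160 and 186 reads in the Nfib-WT column.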

Other observations

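Collagen-like triple helices also occur in proteins that are not named collagens. A set of 22 such genes and their relatives was put together after values had been seen, and is given as values only. Of the 21 above the minimum 7 were higher by 2-fold or more in the NfibFF-WC column and 1 was lower, with a median of 0.55 on the log2 scale. Of all genes, 6.95% were higher and 5.97% lower by this limit. The hormone gene Adipoq stood at 677 against 112 RPKM (log2 2.18), and the scavenger receptor genes Scara5 at 16.3 against 2.71 RPKM (1.87) and Scara3 at 10.5 against 2.38 RPKM (1.43). The complement genes C1qa, C1qb and C1qc differed by 1.21, 1.33 and 1.43, and Emilin2, an elastic fibre protein gene, by 1.45. Marco, a macrophage scavenger receptor gene, was the lower one, at 0.156 against 3.04 RPKM (log2 −1.99). Sftpd, the collectin surfactant protein D, stood at 238 against 209 RPKM (log2 −0.22). Emid2, an older symbol of Col26a1 that the symbol rule does not match, stood at 0.0846 against 0.0336 RPKM.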
